A study of Mus musculus with 8 samples.

Results

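The 10 genes described here encode core subunits of the Polycomb repressive complexes, and were taken by symbol (Ezh1, Ezh2, Eed, Suz12, Jarid2, Bmi1, Ring1, Rnf2, Cbx2 and Cbx7) from a table of 20976 genes. They were measured by RNA sequencing in cultured muscle stem cells, the Pax7-expressing cells that repair skeletal muscle, sorted from mice homozygous for loxP-flanked Chd4. In the Cre group (n = 4) an adenovirus delivered Cre recombinase, which removes Chd4 exons 12 to 21. In the GFP group (n = 4) an adenovirus delivered GFP and left the floxed gene intact. Both groups therefore carried the floxed alleles, received adenovirus, and grew in medium with 20% FCS and 5 ng/ml bFGF. Cre was never delivered to cells without the floxed alleles, and the labels give no strain, age or time after infection. Each group came from 4 mice. Whether equal replicate numbers mark the same mouse is not stated, so without that link the p-values treat the 8 libraries as independent.

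Polycomb complexes keep genes silent by marking histones. Polycomb repressive complex 2 (PRC2) methylates histone H3 at lysine 27 through Ezh2 or its paralogue Ezh1, each of which needs Suz12 and Eed to be active, and Jarid2 is an accessory subunit that helps PRC2 bind chromatin. Polycomb repressive complex 1 (PRC1) monoubiquitinates histone H2A through the ligases Ring1 (RING1A) and Rnf2 (RING1B). Bmi1 (PCGF4) is a partner that activates these ligases in canonical PRC1, and Cbx2 and Cbx7 carry the chromodomain that binds methylated H3. In muscle precursors Ezh2 is known as a brake on differentiation genes and on the cell cycle inhibitor locus Cdkn2a. It is abundant in dividing cells, while Ezh1 is the form that persists in non-dividing ones.

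The promoters of Ezh2 and Ezh1 are shown because Ezh2 had the largest change and Ezh1 is its paralogue, and that of Suz12 because it shares a sequence match with Ezh2. Each sequence runs from 250 bases before to 30 bases after the annotated start, on the strand of the gene, and was taken from RefSeq on GRCm38.p6. Ezh2 lies at chr6:47595001-47595280 (minus strand), Ezh1 at chr11:101226434-101226713 (minus strand) and Suz12 at chr11:79992856-79993135 (plus strand). Capitals mark a match to the consensus of E2F, the transcription factor family that drives S-phase genes.
Ezh2: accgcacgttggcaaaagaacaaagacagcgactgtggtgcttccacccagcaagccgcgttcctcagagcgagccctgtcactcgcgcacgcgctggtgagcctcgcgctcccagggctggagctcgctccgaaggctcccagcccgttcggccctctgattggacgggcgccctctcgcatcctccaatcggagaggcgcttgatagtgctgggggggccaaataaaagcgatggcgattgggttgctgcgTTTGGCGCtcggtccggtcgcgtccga
Ezh1: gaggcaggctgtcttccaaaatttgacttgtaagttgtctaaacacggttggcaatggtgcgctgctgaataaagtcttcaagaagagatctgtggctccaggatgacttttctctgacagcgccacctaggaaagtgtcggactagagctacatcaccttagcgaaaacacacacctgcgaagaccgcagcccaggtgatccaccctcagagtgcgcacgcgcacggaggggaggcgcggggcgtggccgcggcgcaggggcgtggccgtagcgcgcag
Suz12: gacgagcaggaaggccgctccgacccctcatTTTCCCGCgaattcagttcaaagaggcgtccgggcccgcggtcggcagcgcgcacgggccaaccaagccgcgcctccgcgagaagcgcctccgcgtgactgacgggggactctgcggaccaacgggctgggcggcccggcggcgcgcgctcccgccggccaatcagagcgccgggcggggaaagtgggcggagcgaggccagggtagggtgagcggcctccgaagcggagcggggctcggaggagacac
The letters searched were TTTCCCGC, TTTGGCGC, TTTCGCGC and TTTGCCGC, on both strands, over 250 bases before to 50 bases after the start. RefSeq gave a promoter for 9 of the members, and 2 held a match, which began 4 bases after the start in Ezh2 and 219 bases before it in Suz12. Among all 32851 promoter windows of that length 2.26% held a match. For 8 of the proliferation genes used below a promoter was matched, and Cdk1 and Mcm5 held the letters. The PRC2 partner Phf19, described below and higher in Cre, also held TTTCCCGC, on the opposite strand and 208 bases before the start. A match describes letters only. Cbx2 was not matched.

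The deposited values are read counts divided by a factor per library and rounded, called normalised reads here. Scaled totals lay between 27897860 and 28876348, and the depth before scaling, estimated from the spacing of low values, was 26.3 to 30.4 M reads in Cre and 23.3 to 38 M reads in GFP. Chd4 stood at 4828 ± 787 normalised reads in Cre and 17636 ± 1848 in GFP (mean ± SD of 4 libraries), with no overlap between the groups, so its level goes with the labels. All 8 myoblast markers had a row, and 7 of them stood at 2658 normalised reads or more in every library, among them Pax7 at 4381 to 6458 in Cre and 5390 to 6704 in GFP. The remaining one, the myogenic factor Myf5, stood at 347, 334, 298 and 1262 across the Cre libraries (replicates 1 to 4), against 575, 453, 444 and 1816 across the GFP libraries (log2 change -0.57, lower in 4 of 4 pairs; limma, adjusted p = 0.694, paired 1.2e-04). With pairing, described below, 3 of the 8 were called higher and 3 lower, where 22.2% of all genes were higher and 21.7% lower. The summed level of pericyte-associated genes (4 of 4 in the table, mostly Rgs5) was 24588 to 54608 in Cre and 7436 to 14372 in GFP. Rgs5 had a log2 change of 2.08 (limma, adjusted p = 0.0277, paired 3.5e-08). The others changed less: Cspg4 by 0.23 (adjusted p = 0.436, paired 0.0263), Pdgfrb by 0.39 (0.772, paired 0.129) and Abcc9 by 0.37 (0.809, paired 0.00669). Endothelial genes (4 of 4) summed to 276 to 408 in Cre and 141 to 182 in GFP, with Cdh5 at no more than 9 in any library. Among them Tek stood at 114 to 313 in Cre and 31 to 115 in GFP (log2 change 1.46, limma adjusted p = 0.175, paired 3.3e-05). Kdr stood at 14 to 46 in Cre and 2 to 14 in GFP, and Pecam1 was called in neither model (log2 change 0.24, adjusted p = 0.832, paired 0.168). Leukocyte genes (2 of 4 with a row, Cd68 and Csf1r) summed to 115 to 455 in Cre and 51 to 278 in GFP, Schwann cell genes (2 of 3) to 65 to 73 in Cre and 35 to 108 in GFP, and fibro-adipogenic genes (4 of 5, mostly Col3a1) to 10517 to 26800 in Cre and 13250 to 28929 in GFP. Within that list Ly6a, which encodes the surface protein Sca-1, rose, at 346 to 565 in Cre and 60 to 144 in GFP with no overlap (log2 change 2.35; limma, adjusted p = 0.0164, paired 1.8e-06), while Pdgfra stood at 95 to 142 in Cre and 104 to 149 in GFP, and Dcn at no more than 22 in any library. The part of these markers in the results below was not tested. In such bulk samples, fewer cells of a type and less RNA per cell cannot be told apart.

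Setting Cre against GFP addresses how the Polycomb machinery is expressed once Chd4 is deleted. None of the 10 Polycomb members passed in a model without pairing (limma, Benjamini-Hochberg adjusted p under 0.05, 0 of 10), where 1.08% of the 12910 genes tested passed. Voom also called 0, and 1 member, Ezh2, had an unadjusted p under 0.05 and was lower, against 9.3% of all genes lower and 7.41% higher at that level. Libraries that share a replicate number were alike beyond the difference between the groups, so a second fit blocked on that number, called the paired model here. In that paired model 5 members were called lower (Ezh2, Bmi1, Cbx2, Suz12 and Eed) and 0 higher, while 21.7% of all genes were called lower, 22.2% higher and 43.9% in either direction. The Cre library was below the GFP library of its number in 4 of 4 pairs for 6 members and above it for 1 (Cbx7), against 27.6% of all genes below and 27.9% above. The median log2 change was -0.14 over the members and 0.00 over all genes tested. All 10 members passed the filter on low values in both groups, the smallest value of any member being 147 normalised reads.

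**Figure D1:**
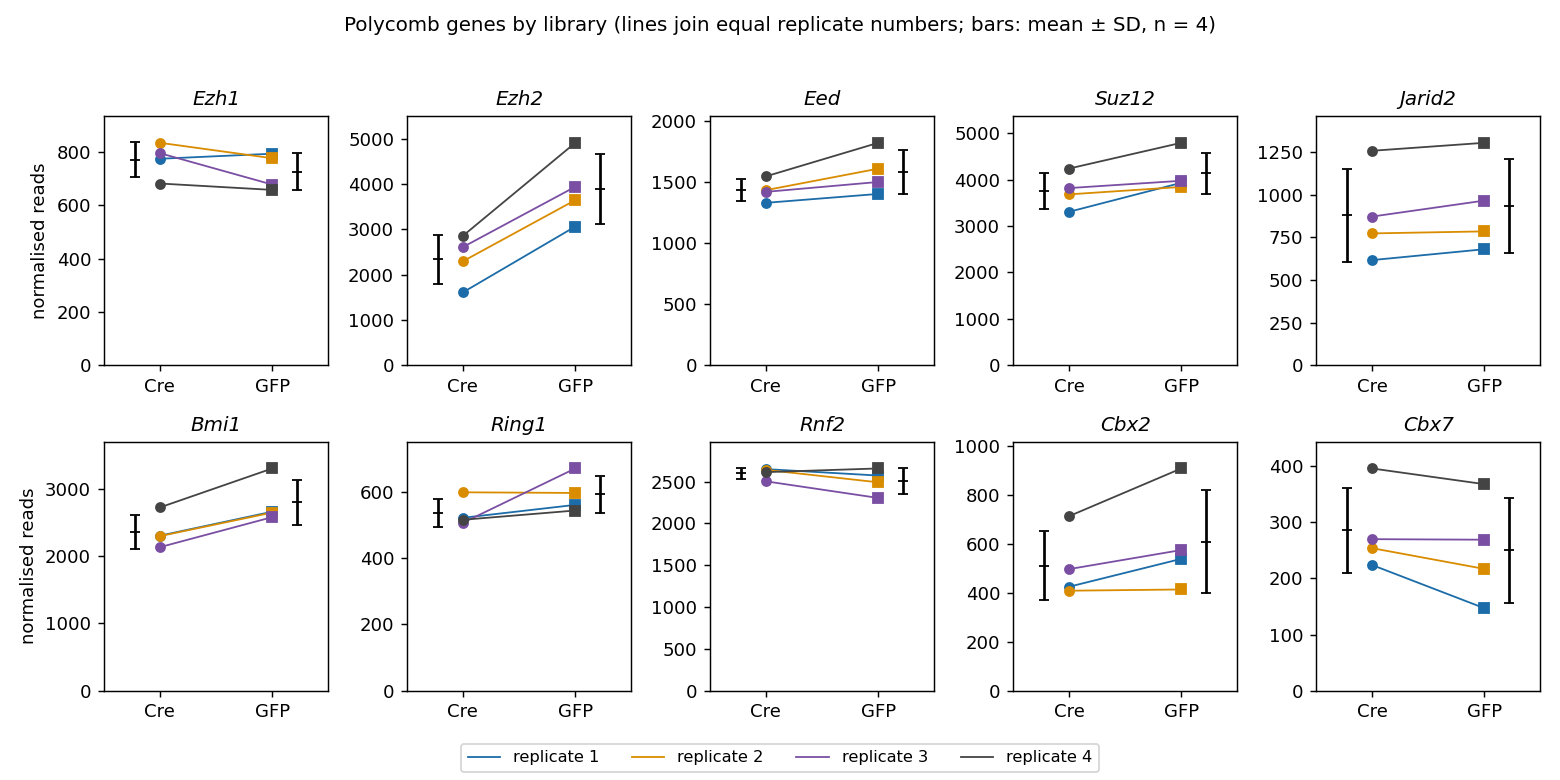
Normalised reads (vertical axes from 0) of each member in the 4 Cre libraries (circles) and 4 GFP libraries (squares), with lines joining equal replicate numbers and black bars for mean ± SD (n = 4 each). Ezh2 is the member whose Cre libraries, at 1606 to 2856, all lie below its GFP libraries, at 3061 to 4913.

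Ezh2, the main H3K27 methyltransferase of dividing cells, was the member with the largest change. It stood at 1606, 2293, 2607 and 2856 normalised reads across the Cre libraries (replicates 1 to 4), against 3061, 3646, 3941 and 4913 across the GFP libraries. The highest Cre library was below the lowest GFP library, which was so for 1 of the 10 members and for 6.17% of all genes tested, while the reverse held for 0 members and 4.41% of genes. The log2 change was -0.74 ± 0.20 (SE; 95% confidence interval -1.21 to -0.28), a level in Cre of 59.7% of that in GFP. It missed the threshold without pairing (limma, adjusted p = 0.131) and fell in the paired model (SE 0.06, adjusted p = 9.5e-06). Within replicate numbers 1 to 4 the differences were -0.93, -0.67, -0.60 and -0.78, lower in 4 of 4 pairs. Of all 12910 genes tested, 225 (1.74%) had a more negative log2 change. The call held in all 10 alternatives of the paired model, with an adjusted p of at most 2.7e-04. Ezh2 lies on chromosome 6 at 47530139 to 47595030, minus strand, GRCm38 (ENSMUSG00000029687).

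Ezh1, the paralogue that forms a less active PRC2, was not called in either model. It stood at 775, 835, 796 and 682 normalised reads across the Cre libraries (replicates 1 to 4), against 794, 777, 678 and 658 across the GFP libraries, and the groups overlapped. The log2 change of 0.09 (95% confidence interval -0.15 to 0.32) passed neither without pairing (limma, adjusted p = 0.728) nor with it (adjusted p = 0.281). Because a ratio within a library is free of scaling between libraries, the balance of the paralogues was compared directly. The log2 ratio of Ezh2 to Ezh1 reads was 1.05, 1.46, 1.71 and 2.06 in Cre libraries 1 to 4, against 1.95, 2.23, 2.54 and 2.90 in GFP libraries 1 to 4. It was lower in Cre in 4 of 4 pairs, but Cre library 4 lay above GFP library 1. The difference of -0.83 gave a two-sided exact permutation p of 0.0571 over the 8 libraries (0.0857 adjusted over the 3 ratios tested), and the exact sign-flip p over the pairs was 0.125, the smallest that 4 pairs allow. Per kilobase of annotated exon, the ratio of Ezh2 to Ezh1 reads was 3.31 to 1 in Cre and 5.89 to 1 in GFP. That length covers all annotated exons of a gene and not the transcripts expressed, so the ratio is not one of molecules. Ezh1 lies on chromosome 11 at 101191115 to 101226463, minus strand (ENSMUSG00000006920).

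**Figure D2:**
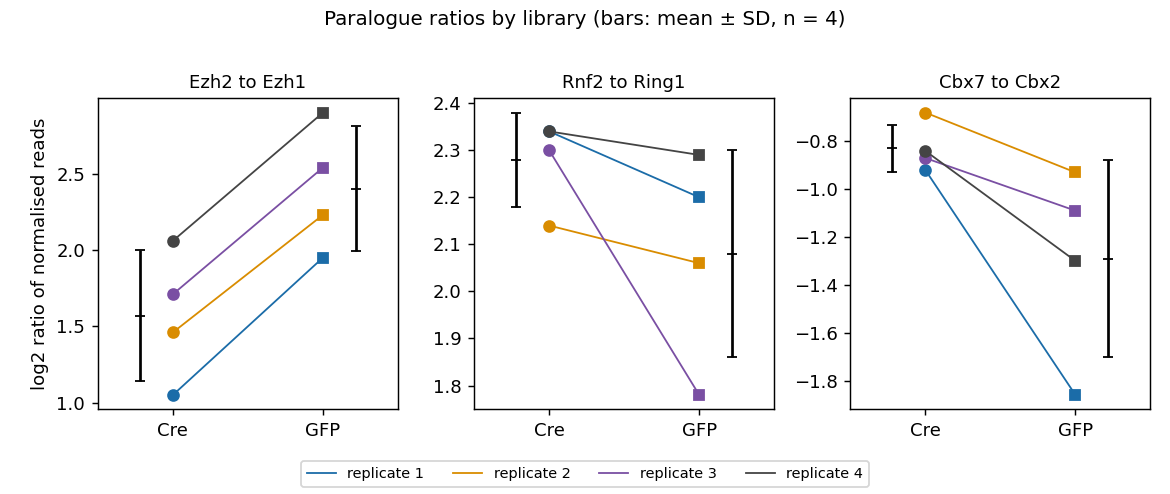
Log2 ratio of normalised reads (vertical axes, not starting at 0) of 3 pairs of related members in the 4 Cre and 4 GFP libraries, with lines joining equal replicate numbers and black bars for mean ± SD. The Ezh2 to Ezh1 ratio averages 1.57 in Cre and 2.40 in GFP and is lower in Cre in each of the 4 pairs.

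Eed and Suz12, the subunits without which neither Ezh protein methylates H3, were slightly lower. Suz12, which holds the complex together, stood at 3308, 3685, 3821 and 4242 normalised reads across the Cre libraries (replicates 1 to 4), against 3935, 3846, 3979 and 4799 across the GFP libraries. Eed, which reads methylated H3 and stimulates the enzyme, stood at 1329, 1433, 1419 and 1546 in Cre, against 1402, 1609, 1500 and 1821 in GFP. In both genes the groups overlapped, while the Cre library was the lower member of 4 of 4 pairs. The log2 change was -0.14 for Suz12 (limma, adjusted p = 0.551, paired 0.0341) and -0.14 for Eed (adjusted p = 0.511, paired 0.041). These paired calls were not firm: that of Suz12 was lost in 4 of 10 alternatives (with no filter, or leaving out pair 1, 2 or 4; largest adjusted p 0.148) and that of Eed in 3 of 10 (with no filter, or leaving out pair 2 or 4; largest adjusted p 0.177). Suz12 lies on chromosome 11 at 79993106 to 80034123, plus strand (ENSMUSG00000017548), and Eed on chromosome 7 at 89954654 to 89980983, minus strand (ENSMUSG00000030619).

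Jarid2 varied between replicate numbers far more than between groups. It stood at 617, 774, 873 and 1260 normalised reads across the Cre libraries (replicates 1 to 4), against 681, 786, 967 and 1307 across the GFP libraries. Replicate 4 was the highest and replicate 1 the lowest in each group. The log2 change was -0.09 (95% confidence interval -0.69 to 0.50 without pairing and -0.21 to 0.03 with it; limma, adjusted p = 0.906, paired 0.203). The means of its pairs spanned 0.98 log2 units. Jarid2 lies on chromosome 13 at 44730774 to 44921643, plus strand (ENSMUSG00000038518).

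**Figure D3:**
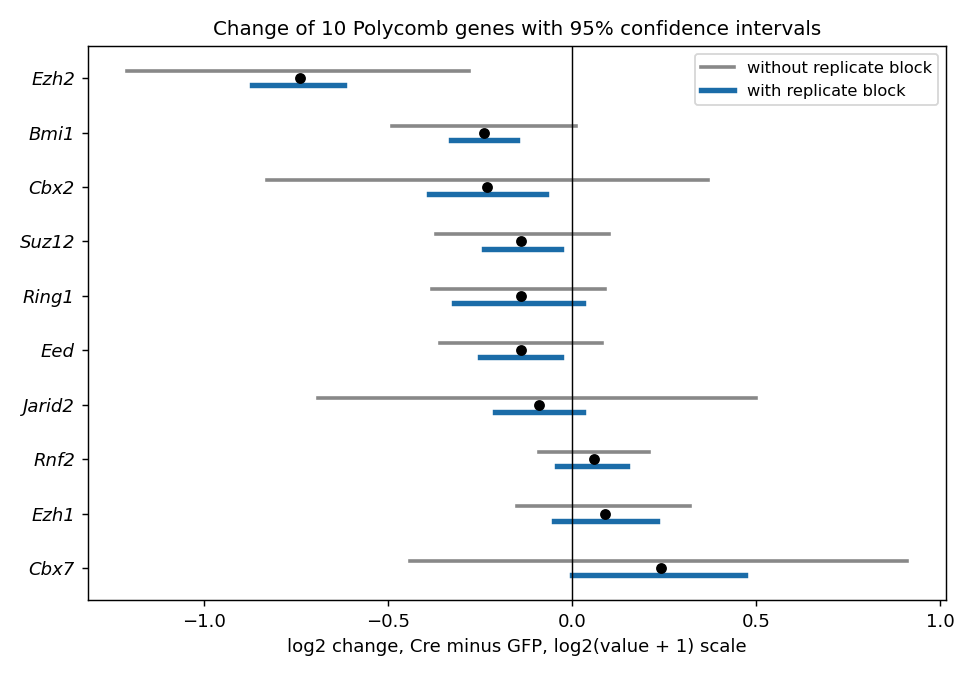
Log2 change of each member, Cre minus GFP (horizontal axis, log2(value + 1) scale), with 95% confidence intervals from the model without the replicate block (grey) and with it (blue). Intervals of Ezh2, Bmi1, Cbx2, Suz12 and Eed lie below 0 with the block, and that of Ezh2 also without it.

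Among the PRC1 genes, Bmi1 was the member with the steadiest difference. It stood at 2301, 2295, 2131 and 2721 normalised reads across the Cre libraries (replicates 1 to 4), against 2658, 2645, 2577 and 3300 across the GFP libraries. Cre library 4 lay above 3 of the GFP libraries, so the groups overlapped. Within the pairs the log2 differences were -0.21, -0.20, -0.27 and -0.28. The mean change of -0.24 corresponds to 84.6% of the GFP level (limma, unadjusted p = 0.0547, adjusted p = 0.312, paired 0.00112), and the paired call held in all 10 alternatives (adjusted p at most 0.00763). Bmi1 lies on chromosome 2 at 18677018 to 18686629, plus strand (ENSMUSG00000026739).

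Neither ligase gene was called in either model. Rnf2, the more abundant of them, stood at 2650, 2641, 2504 and 2614 normalised reads across the Cre libraries (replicates 1 to 4), against 2573, 2492, 2305 and 2658 across the GFP libraries, a log2 change of 0.06 (95% confidence interval -0.04 to 0.15 with pairing; limma, adjusted p = 0.733, paired 0.337). Ring1 stood at 522, 599, 507 and 516 in Cre, against 561, 597, 671 and 544 in GFP, a log2 change of -0.14 (interval -0.32 to 0.03 with pairing; adjusted p = 0.528, paired 0.154). Most of the Ring1 difference came from replicate 3, at -0.40, while replicate 2 gave 0.00. The log2 ratio of Rnf2 to Ring1 averaged 2.28 ± 0.10 in Cre and 2.08 ± 0.22 in GFP (SD of 4 libraries each), a difference of 0.20 (exact permutation p = 0.171, two-sided). Rnf2 lies on chromosome 1 at 151469405 to 151500955, minus strand (ENSMUSG00000026484), and Ring1 on chromosome 17 at 34020792 to 34024680, minus strand (ENSMUSG00000024325).

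The chromodomain genes Cbx2 and Cbx7 differed in sign. Cbx2 stood at 424, 408, 496 and 712 normalised reads across the Cre libraries (replicates 1 to 4), against 538, 413, 574 and 907 across the GFP libraries. Its log2 change of -0.23 passed in the paired model (limma, adjusted p = 0.0279, unpaired 0.723), a call lost when pair 1, 3 or 4 was left out (largest adjusted p 0.136). Cbx7, the form best known from self-renewing cells, stood at 224, 254, 270 and 396 in Cre, against 147, 217, 269 and 368 in GFP, a log2 change of 0.24 that passed in neither model (adjusted p = 0.75, paired 0.0983). Replicate 1 gave the largest Cbx7 difference, 0.60, and replicate 3 gave 0.01. The log2 ratio of Cbx7 to Cbx2 was -0.92, -0.68, -0.87 and -0.84 across the Cre libraries, against -1.86, -0.93, -1.09 and -1.30 across the GFP libraries, with no overlap. The difference of 0.47 gave an exact two-sided permutation p of 0.0286, the smallest that 4 against 4 libraries allow, which became 0.0857 when adjusted over the 3 ratios. Leaving out GFP library 1 reduced the difference to 0.28. Cbx2 lies on chromosome 11 at 119022962 to 119031270, plus strand (ENSMUSG00000025577), and Cbx7 on chromosome 15 at 79915807 to 79932652, minus strand (ENSMUSG00000053411).

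Levels per kilobase of annotated exon put the members in an order. Suz12 was highest, at 761 normalised reads per kb in Cre and 837 in GFP, and Cbx7 lowest, at 44.1 in Cre and 38.6 in GFP. Bmi1 (594 in Cre, 703 in GFP), Rnf2 (631 in Cre, 607 in GFP), Ezh2 (350 in Cre, 583 in GFP) and Eed (374 in Cre, 414 in GFP) followed Suz12. Ezh2 ranked next to Eed in Cre and next to Rnf2 in GFP, in each case by less than the larger SD of the neighbours. Ring1 (165 in Cre, 183 in GFP), Cbx2 (120 in Cre, 143 in GFP), Ezh1 (104 in Cre, 97.7 in GFP) and Jarid2 (90.7 in Cre, 96.3 in GFP) came lower. Neighbours closer than the larger SD were also Rnf2 and Bmi1 in Cre, Ring1 and Cbx2 in GFP, and Cbx2 with Ezh1 and Ezh1 with Jarid2 in both groups. The within-group coefficient of variation was 31.1% in Cre and 29.4% in GFP for Jarid2. The same coefficient was 2.58% in Cre and 6.01% in GFP for Rnf2, the steadiest member, and 23.1% in Cre and 19.9% in GFP for Ezh2. Pair means spanned 1.07 log2 units in Cbx7, 0.97 in Cbx2 and 0.76 in Ezh2, but 0.13 in Rnf2 and 0.17 in Ring1.

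Proliferation markers moved with Ezh2. The summed level of 10 of them was 13477, 24881, 31139 and 38468 normalised reads across the Cre libraries (replicates 1 to 4), against 29673, 40676, 49489 and 65033 across the GFP libraries, and replicate 1 was lowest and replicate 4 highest in each group, as for Ezh2. Mki67, the standard marker of cycling cells, differed by -1.46, -0.87, -0.76 and -0.90 log2 units in pairs 1 to 4, and the DNA topoisomerase Top2a by -1.17, -0.69, -0.57 and -0.74. With pairing all 10 markers were called lower, where 21.7% of all genes were. Without it 0 were (limma and voom), while 6 were lower at an unadjusted p under 0.05, against 9.3% of all genes. The median log2 change of the markers was -0.82, beside -0.74 for Ezh2. The part of proliferation in the Ezh2 difference was not tested. Between the groups, differentiated muscle genes moved the other way, with 8 of 8 called higher with pairing, where 22.2% of all genes were. Without it 0 were called, where 1.08% of all genes were, and the median log2 change of the muscle genes was 0.39. Their summed level was 103553, 375582, 387253 and 212578 across the Cre libraries (replicates 1 to 4). Across the GFP libraries it was 83236, 324595, 299377 and 139285. Replicate 1 was therefore lowest in each group for the muscle genes too, and they varied more between replicate numbers than between groups. Myog, the factor that starts terminal differentiation, stood at 23058 ± 7794 normalised reads in Cre and 17310 ± 7525 in GFP (SD of 4 libraries each), and the muscle creatine kinase Ckm at 130 ± 65.2 in Cre and 104 ± 60.0 in GFP. The paired call of Ckm was lost when pair 1, 3 or 4 was left out (largest adjusted p 0.0879), and its unpaired log2 change of 0.42 became -0.15 without GFP library 1.

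**Figure D4:**
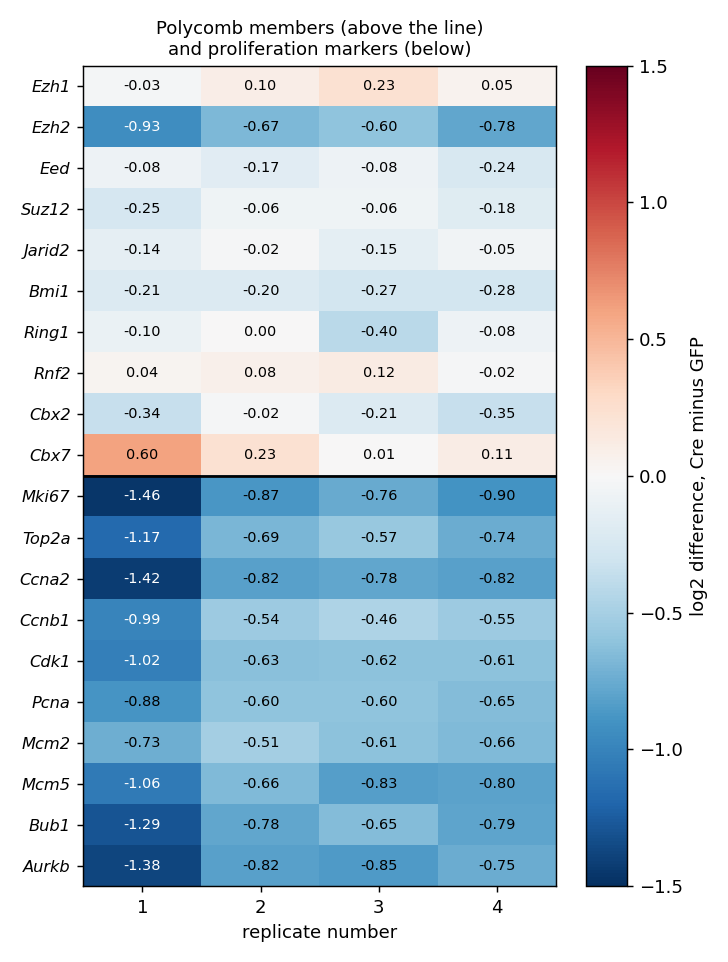
Log2 difference, Cre minus GFP, within each replicate number (columns) for the 10 Polycomb members (above the line) and 10 proliferation markers (below it), with blue for lower in Cre and red for higher. Ezh2, at -0.60 to -0.93, resembles the markers, at -0.46 to -1.46, and the remaining members stay between -0.40 and 0.60.

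The genes most like 3 members were found by the correlation of log2(value + 1) over the 8 libraries, among 10402 protein-coding genes that averaged 5 CPM or more (the reads scaled to a common library sum). For Ezh2 they were Pcna, the replication clamp (Pearson r = 0.998), Lin54, a DNA-binding subunit of the DREAM cell cycle complex (r = 0.996), and Evc, a component of the primary cilium (r = 0.994). The correlations of their deviations from the group means, which do not contain the difference between groups, were 0.994, 0.990 and 0.985. For Bmi1 they were the zinc transporter gene Slc39a10 (r = 0.990), the pantothenate kinase gene Pank2 (r = 0.989) and the AAA+ ATPase gene Ruvbl1 (r = 0.985). For Eed they were Cnot2, a subunit of the deadenylase complex CCR4-NOT (r = 0.990), the ciliary gene Lca5 (r = 0.979) and Aasdh (r = 0.974). These values describe 8 libraries in 4 pairs that share scaling, and were chosen as the highest of many.

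Among 49 other genes of the pathway, 48 were in the table and passed the filter. None passed without pairing (limma, 0 of 48, and 0 with voom), where 1.08% of all genes did. An unadjusted p under 0.05 was reached by 3 higher and 3 lower genes, against 7.41% of all genes higher and 9.3% lower. In the paired model 8 were higher, 7 lower and 33 not called, with a median log2 change of 0.00. That model called 22.2% of all genes higher, 21.7% lower and 43.9% in either direction. Of 9 PRC2 partners 3 were higher and 0 lower, of 26 PRC1 partners 4 were higher and 6 lower, of 6 genes of H2A deubiquitination 0 were higher and 1 lower, and of the H3K27 demethylase pair 1 was higher. None of the 5 trithorax methyltransferase genes tested was called.

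The largest difference in this list was that of Phf19, a PRC2 partner whose Tudor domain binds methylated H3K36. Phf19 stood at 40, 64, 101 and 96 normalised reads across the Cre libraries (replicates 1 to 4), against 11, 22, 25 and 23 across the GFP libraries, with no overlap. For 4.41% of all genes tested, every Cre library lay above every GFP library. The log2 change of Phf19 was 1.81 ± 0.38 (SE; limma, adjusted p = 0.0799, paired 5.0e-05), opposite in sign to Ezh2. No GFP library reached 1 CPM and all 4 Cre libraries did, so this gene passed the filter through the Cre group. Lcorl, a PRC2 partner of the PALI family, rose in the paired model (log2 change 0.32, adjusted p = 0.00159, unpaired 0.129). It overlaps Ncapg on the other strand, which was similarly abundant, and strand use in counting is not given in the sources used here.

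Kdm6b, the H3K27 demethylase JMJD3, stood at 2531, 1804, 2032 and 2727 normalised reads across the Cre libraries (replicates 1 to 4), against 1928, 1413, 1486 and 1973 across the GFP libraries. It was higher in 4 of 4 pairs, by 0.42 log2 units on average (limma, adjusted p = 0.266, paired 6.5e-05), whereas its relative Kdm6a differed by 0.01 (paired adjusted p = 0.84). Within non-canonical PRC1, Kdm2b, which binds unmethylated CpG DNA, had a log2 change of -0.34 (adjusted p = 0.22, paired 0.0047) and overlaps Rnf34 on the other strand, and the BCOR relative Bcorl1 one of 0.38 (adjusted p = 0.335, paired 5.1e-04). Of the Bmi1 paralogues, Pcgf5 and Pcgf6 had log2 changes of -0.21 (limma, adjusted p = 0.193, paired 0.0084) and -0.20 (adjusted p = 0.359, paired 0.0481). Pcgf2 had one of -0.20 (adjusted p = 0.461, paired 0.0241), Pcgf1 one of -0.16 (adjusted p = 0.647, paired 0.33) and Pcgf3 one of 0.07 (adjusted p = 0.778, paired 0.147). The ubiquitin protease Usp7 had a log2 change of -0.18 (adjusted p = 0.29, paired 0.00587). The call of Pcgf6 was lost in 5 of 10 paired alternatives, among them upper-quartile rescaling (adjusted p up to 0.19).

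**Figure D5:**
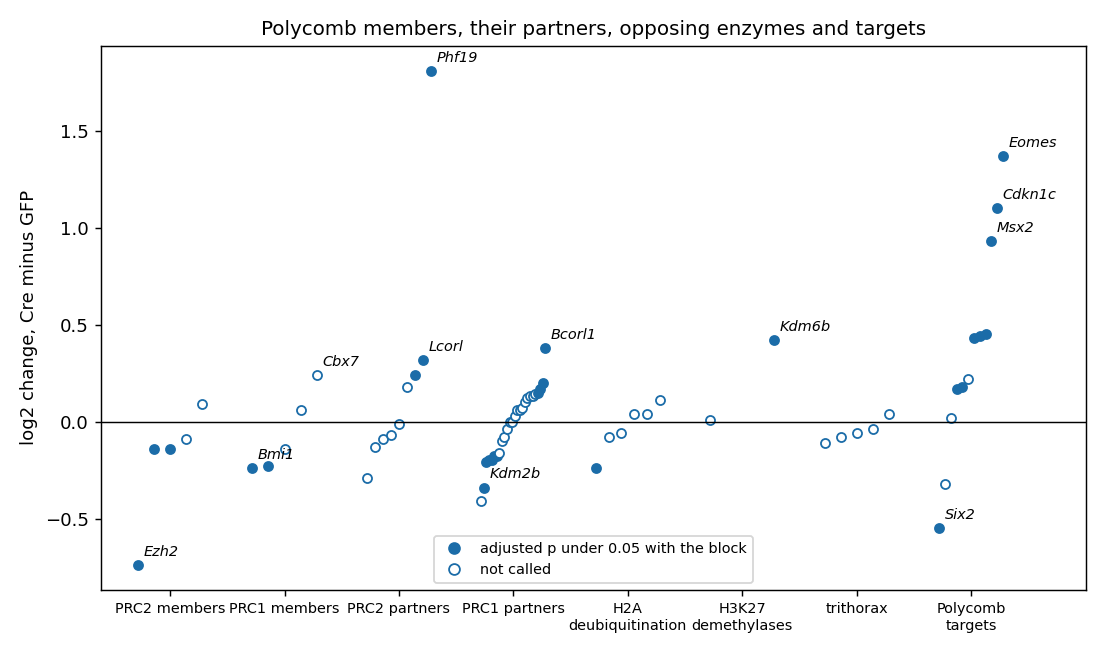
Log2 change, Cre minus GFP (vertical axis), of each tested gene in 8 classes, with filled points for an adjusted p under 0.05 in the model with the replicate block. Ezh2, at -0.74, is the lowest point among members and partners, and Phf19, at 1.81, the highest.

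Of 35 textbook Polycomb targets, 12 passed the filter. Without pairing 0 of them passed (limma, and 0 with voom), where 1.08% of all genes did. An unadjusted p under 0.05 was reached by 3 higher and 0 lower targets, against 7.41% of all genes higher and 9.3% lower. In the paired model 8 were higher and 1 lower, where 22.2% of all genes were higher and 21.7% lower. The median log2 change of the targets was 0.33. Eomes, among those called higher, stood at 250, 100, 73 and 9 in Cre libraries 1 to 4, against 197, 22, 22 and 3 in GFP. It had the largest change (log2 change 1.37, limma adjusted p = 0.657, paired 0.00216) and passed the filter mostly through the Cre group. The target called lower was Six2 (log2 change -0.55, limma adjusted p = 0.551, paired 0.00272). Lhx2, which did not pass the filter, stood at 6, 8, 9 and 9 in Cre libraries 1 to 4, against 28, 22, 26 and 16 in GFP. With no filter the paired model called 8 targets higher and 2 lower. Genes that enter such a list by reaching the filter are the ones active in these cells, and no test was made of the list. Cdkn1c, the cyclin-dependent kinase inhibitor p57, stood at 100, 120, 92 and 67 normalised reads across the Cre libraries (replicates 1 to 4), against 25, 65, 47 and 43 across the GFP libraries, with no overlap (log2 change 1.10, limma adjusted p = 0.145, paired 0.00197). Of all genes tested, 4.41% likewise had every Cre library above every GFP library. The homeobox gene Msx2 had a log2 change of 0.93 (adjusted p = 0.25, paired 3.7e-04), the zinc finger factor gene Gata3 one of 0.45 (adjusted p = 0.197, paired 0.00101) and the T-box gene Tbx15 one of 0.43 (adjusted p = 0.504, paired 4.7e-04). Cdkn2a, the locus classically silenced by Bmi1 and Ezh2, stood at 7988, 4769, 3875 and 3855 normalised reads across the Cre libraries (replicates 1 to 4), against 8241, 4468, 4074 and 3555 across the GFP libraries. Its log2 change of 0.02 passed in neither model (adjusted p = 0.982, paired 0.714), and replicate 1 was the highest in each group. Its neighbour Cdkn2b, which encodes the inhibitor p15, stood at 4838, 2251, 2026 and 1951 across the Cre libraries, against 4382, 1546, 1416 and 1318 across the GFP libraries. Cdkn2b was higher in 4 of 4 pairs, with a log2 change of 0.44 (adjusted p = 0.678, paired 5.3e-04). Both genes were singled out after their values were seen.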

How the data were processed

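RNA was sequenced from 8 libraries with a stranded protocol, per the labels. The submitters' processing notes list STAR 2.5.3a, featureCounts 1.5.3, DESeq and the build GRCm38 (mm10). How they were run, and whether counting used strand, is not given in the sources used here. The authors' deposited values count as a score: whole numbers with nearly equal totals and regular gaps, as counts divided by a factor and rounded would be. A count model was therefore not used. Libraries of a group differed by 23.4 to 132 in chi-square per degree of freedom, so none repeated another. The members had at least 147 normalised reads in every library, and rounding adds less than 1 read. The part of counting error in their values was not tested.

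A linear model with an intensity trend (limma 3.58.1, R 4.3.3) was fitted to log2(value + 1) of 12910 genes with at least 1 CPM in at least 4 libraries; fold changes of low genes are understated on that scale. Two-sided p-values were adjusted over all genes (Benjamini-Hochberg). Exact permutation tests were used for 3 ratios. The models were also run on simulated data, in which libraries of equal number shared their means apart from planted changes. Such data cannot show whether pairing by number holds. Exon lengths came from GENCODE M21 on GRCm38, which held 20941 of the 20976 identifiers; coordinates are those of the deposited table. Python 3.11.15 was used for tables and figures.

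Replicate numbers came from the titles. Once group means were subtracted, a Cre and a GFP library with the same number correlated at 0.82 to 0.908, and with different numbers at -0.597 to 0.477. The numbers were therefore treated as pairs, a link seen in the values and not stated in the labels.

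The members and lists were chosen with earlier results of these data known. Genes named beside the 10 members and Chd4 are, of the other pathway genes, the 8 with the smallest unpaired p and any called with the block at an absolute log2 change of at least 0.5, the 4 targets with the smallest p, 4 fixed markers, and the 3 genes most correlated with each of the 3 members of smallest p. Further marker genes, Kdm6a, Pcgf1, Pcgf2, Pcgf3, Cdkn2a, Cdkn2b, Eomes, Six2 and Lhx2 were named after their values were seen. Alternatives were another pseudocount (0.1), no filter or 5 CPM, total or upper-quartile rescaling, voom, and leaving out libraries or pairs.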

Additional observations from a re-analysis of the deposited data

Results flagged for a closer look

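Of 28 groups of 4 libraries checked for a single value far from the others (10 members, Chd4 and 3 ratios in each group), 3 stood out, and chance alone flags about 1 group in 20. Bmi1 in GFP had its highest value in library 4, at 3300 normalised reads against 2577 to 2658 in libraries 1 to 3, a gap of 0.888 of the range. Suz12 in GFP had its highest value in the same library, at 4799 against 3846 to 3979, a gap of 0.860 of the range. GFP library 4 was the deepest before scaling, at an estimated 38 M reads, and the part of depth in these values was not tested. Ring1 in Cre had its highest value in library 2, at 599 normalised reads against 507 to 522 in the others, a gap of 0.837 of the range. The paired call of Bmi1 held without replicate 4, and that of Suz12 did not.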

How the results depend on the processing

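In the 14 alternatives without the block, each member kept its side of the threshold (not called), and the counts of members, other pathway genes and targets called stayed at 0. The unpaired count of all genes, 140, was 85 with a filter of 5 CPM and 1 to 58 without single libraries; these fits have fewer samples. With the replicate block it was 5665, and with the block 5651 with a pseudocount of 0.1, 5661 without a filter, 4979 with 5 CPM, 5764 with total rescaling, 5717 with upper-quartile rescaling, 5713 with voom and 4923, 4489, 4800 and 4261 without pairs 1, 2, 3 and 4. In the same order, starting with the block alone, called members numbered 5, 5, 3, 5, 5, 5, 5, 3, 3, 4 and 2, other pathway genes 15, 15, 12, 14, 14, 14, 14, 10, 10, 15 and 9, and targets 9, 9, 10, 6, 9, 9, 9, 7, 6, 8 and 7. With total rescaling and the block, all genes split into 2607 higher and 3157 lower, against 2861 higher and 2804 lower. Of 36 named genes, 28 gained a call against the unpaired main fit, in 277 fits, all with the block, and 0 reversed one. Chd4 alone was called in that main fit, so a call could be lost for that gene only, and it was kept. Against the paired fit, calls were lost in 3 of 10 alternatives for Eed, Cbx2, Ckm, Ruvbl1 and Lca5. They were lost in 4 for Suz12 and in 5 for Pcgf6. The ratios passed nowhere after adjustment; without single libraries their differences were -1 to -0.66 (Ezh2 to Ezh1), 0.10 to 0.27 (Rnf2 to Ring1) and 0.28 to 0.59 (Cbx7 to Cbx2). Of the 5 members called in neither model, Jarid2 changed sign when libraries were left out (-0.28 to 0.08), and Ezh1, Ring1, Rnf2 and Cbx7 kept theirs. These members had at least 147 normalised reads in every library, and the part of depth in their results was not tested.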
